A study of Homo sapiens with 17 samples.

Results

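PCBP1, PCBP2, PCBP3 and PCBP4, the 4 genes of the poly(C)-binding protein family, were followed by their symbols in a table of counts for 23368 genes. RNA came from HEK293T, a line of human embryonic kidney cells, and only polyadenylated RNA was used. acRIP-seq pulls down RNA with an antibody against N4-acetylcytidine (ac4C), an acetylated cytidine, and sequences what is bound. Cells with the genotype WT and cells with siRNA against TARDBP (labelled siTARDBP, here siTDP43), the gene of the RNA-binding protein TDP43, were each measured in 3 ways. These were RNA before pull-down (input), the anti-ac4C pull-down (IP) and a pull-down with control immunoglobulin G (IgG), with 3 libraries in every group except WT IgG, which had 2. The labels name no control siRNA for WT, so transfection, knockdown and any batch between both genotypes cannot be told apart. All libraries came from 1 cell line, and the study's methods speak of independent samples for most experiments without saying whether these replicates were separate cultures, so p-values measure only the spread between these libraries.

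Poly(C)-binding proteins, also called hnRNP E proteins, hold RNA through hnRNP K homology (KH) domains that recognise runs of cytidines. PCBP1 and PCBP2 are abundant in most tissues and control mRNA stability, translation and splicing. PCBP1 arose from a PCBP2 mRNA that was copied back into the genome and has no introns, and both proteins also carry iron to ferritin and to iron enzymes. The study put PCBP1, PCBP2 and TDP43 forward as partners that lead NAT10, the enzyme that writes ac4C, to mRNA.

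Each input library held at least 24542434 counts and at most 36583436. WT pull-downs held 19615316 to 21066215 counts for IP and 9022250 to 9466855 for IgG. The siTDP43 pull-downs were shallower, at 8610070 to 15736165 for IP and 3013989 to 3436811 for IgG. Levels are given as CPM, counts relative to each library's size after TMM scaling, and levels of different genes are compared only as CPM per kilobase of exon. TARDBP was 150 to 157 CPM in WT input and 98.7 to 106 CPM in siTDP43 input, a fall to 67.2% of WT (adjusted p = 6.55e-13, edgeR's quasi-likelihood test). Of 6 genes known from HEK293T cells, VIM, KRT8, KRT18, NEFL and NEFM had at least 947 counts in every input library and PAX2 had 2 to 54. In siTDP43 input 5 of the 6 were tested, and NEFL rose by 1.52 on the log2 scale while KRT8 (-2.30), VIM (-1.58), NEFM (-0.66) and KRT18 (-0.54) fell, and their part in the changes of the PCBP genes was not tested. The leukocyte gene PTPRC had 0 counts in all 6 input libraries, the liver gene ALB at most 4 and the islet gene INS at most 1.

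The study lists 2 siRNAs against TARDBP, and the labels do not say which was used. Their sense strands are shown because all 4 PCBP mRNAs were lower in siTDP43 input, and capitals mark the bases that pair with the seed of the guide strand (sense bases 12 to 18).
siRNA 1: ggcugguagaaGGAAUUCu
siRNA 2: gucacagcgacAUAUGAUa
Both matched TARDBP over all 19 bases, at chr1:11073948-11073966 and chr1:11078873-11078891 of hg19, in coding sequence of exons 2 and 4 of the canonical transcript. The exons of PCBP1, PCBP2, PCBP3 and PCBP4 held 0 matches to either 7-base seed target, GGAATTC or ATATGAT, in sense orientation. Among 23346 genes with exon sequence, 16.98% held the first and 14.4% the second. The longest stretch shared with a PCBP gene was 8 bases, in PCBP2, for each siRNA. Matches were sought within single exon blocks, so any across a splice junction would be missed.

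PCBP1 is 1 exon of 1750 bases at chr2:70314585-70316334 (plus strand). PCBP2 has 15 exon blocks and 3171 exon bases at chr12:53845886-53874946 (plus), PCBP3 has 1989 exon bases at chr21:47269875-47362368 (plus), and PCBP4 has 2255 at chr3:51991470-52001482 (minus). The first 30 coding bases of PCBP1 (chr2:70314876-70314905) and PCBP2 (chr12:53848585-53848614) are shown because reads of both genes had to be told apart by such differences, and capitals mark the 5 bases that differ.
PCBP1: atggaTGccggtgtgaCtgaaAgtggaCta
PCBP2: atggaCAccggtgtgaTtgaaGgtggaTta
Over 1456 aligned bases the exons of this pair were 81.0% identical, and the longest identical run was 33 bases, shorter than a read of 151 bases in the study's methods. Runs shared by other pairs of the 4 genes were 14 to 20 bases.

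The letters CCC were frequent in the exons of the PCBP genes themselves, counted with overlap, so a longer run counts more than once. The letters CCC occurred 34.3 times per kilobase of exon in PCBP1, 36.9 in PCBP2, 39.2 in PCBP3 and 41.7 in PCBP4, against a median of 18.1 over all genes. These values lay above those of 84.0 to 92.2% of genes. The exons were also rich in cytidine as such. It made up 29.8% of bases in PCBP1, 26.8% in PCBP2, 31.2% in PCBP3 and 32.8% in PCBP4, against a median of 24.4%. These shares lay above those of 79.7, 63.3, 86.5 and 92.4% of genes, and the part of base content in the CCC counts was not tested. HNRNPK, the KH protein gene closest to this family by name and function, had 14.5, and TARDBP had 9.01. Their exons held 19.2% and 16.9% cytidine. The octamer TCCCAGCT was in none of the 4 genes, and 16.7% of all genes held it in sense orientation. These matches were counted within single exon blocks, so any across a splice junction would be missed. They describe the exon sequence only and say nothing of binding.

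In WT input the 4 genes differed widely in level. PCBP1 was highest per length at 46.6 ± 1.31 CPM per kilobase (SD, n = 3), followed by PCBP2 at 39.9 ± 1.48, PCBP4 at 23.4 ± 0.22 and PCBP3 at 1.04 ± 0.10. Ranges of neighbouring genes did not overlap in any of the 6 groups, though PCBP4, next above PCBP3, had as few as 6 counts in siTDP43 IgG. By these lengths the order was the same in every group except siTDP43 IgG, in which PCBP2 (97.9 ± 1.98 CPM per kilobase) stood above PCBP1 (78.2 ± 1.31). The length of PCBP2 includes 671 bases shared with MAP3K12, a gene on the opposite strand. If reads there were not counted, PCBP2's level per length is understated, so its place below PCBP1 in WT input is not settled. PCBP3 had few counts, at 65, 73 and 78 in WT input.

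In siTDP43 input all 4 PCBP mRNAs were lower than in WT input. The study used RT-qPCR, relative to GAPDH, and western blot, each against a control siRNA. It describes TDP43 and NAT10 as slightly altered upon depletion of PCBP1 and PCBP2, and says that the reverse held. That is read here as slight changes of PCBP1, PCBP2 and NAT10 upon TDP43 depletion. PCBP1, the intronless member, was 79.0, 83.5 and 82.2 CPM in WT input and 45.4, 46.4 and 46.7 CPM in siTDP43 input. Its log2 change was -0.82 ± 0.05 (SE), 1.76-fold lower (adjusted p = 8.73e-15). PCBP2, its close relative, was 123, 125 and 132 CPM in WT and 50.8, 48.6 and 50.9 CPM in siTDP43. That was a log2 change of -1.33 ± 0.05, or 2.52-fold lower (adjusted p = 6.81e-21). In both genes every siTDP43 library lay below every WT library.

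The less abundant members fell as well. PCBP3 was 2.15, 1.86 and 2.22 CPM in WT input and 1.01, 0.634 and 0.638 CPM in siTDP43 input, from 32, 16 and 18 counts. Its log2 change was -1.42 ± 0.32, 2.68-fold lower (adjusted p = 2.18e-04). PCBP4, a member that p53 induces and that slows the cell cycle, was 52.4, 52.8 and 53.4 CPM in WT and 14.4, 12.5 and 12.2 CPM in siTDP43. With a log2 change of -2.01 ± 0.08 it was 4.04-fold lower (adjusted p = 7.61e-21), the lowest value among the 4, and the groups of neither gene overlapped. These adjusted p-values are from edgeR's quasi-likelihood test over 14036 genes, with Benjamini-Hochberg adjustment. In bulk RNA, fewer cells that express a gene and less of its RNA per cell cannot be told apart.

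**Figure D1:**
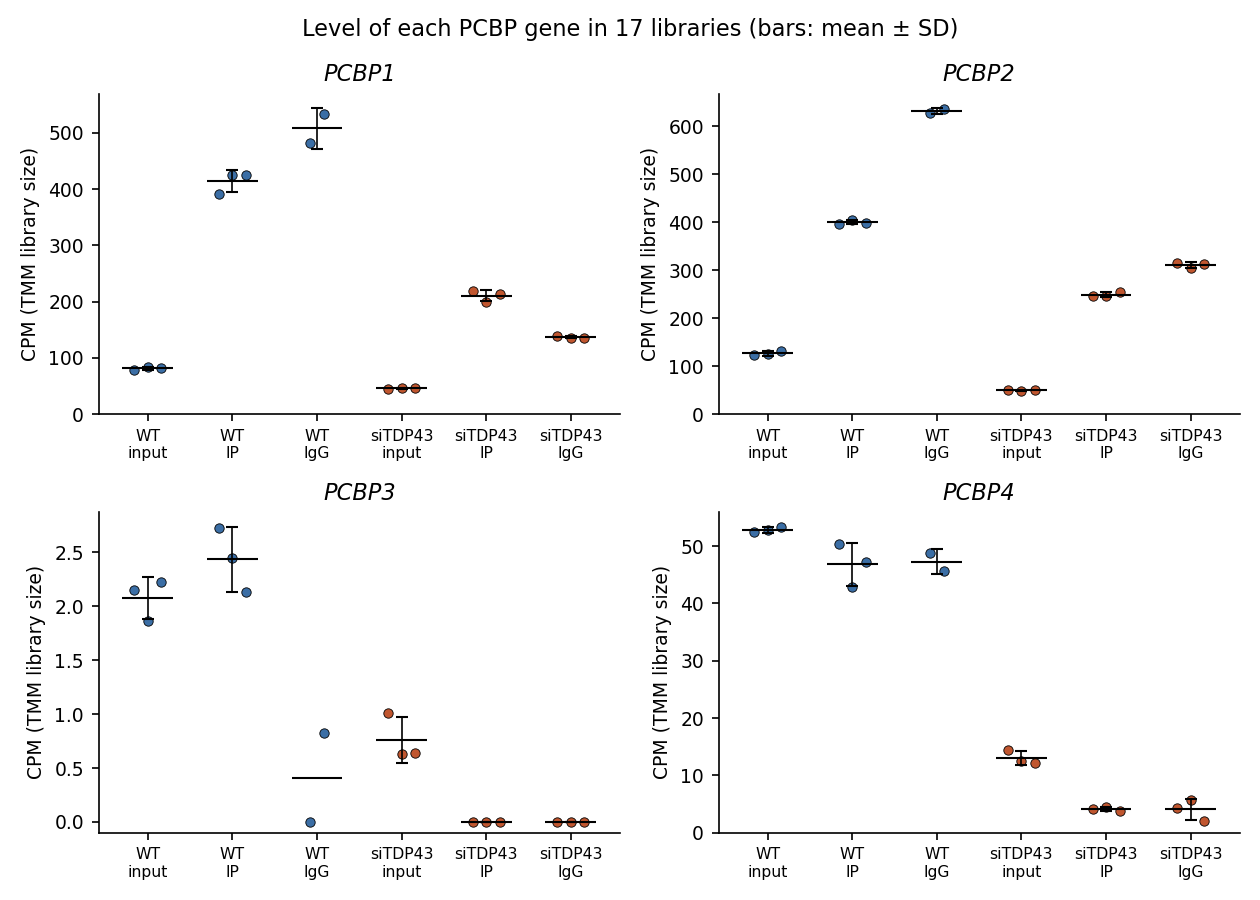
Level of PCBP1, PCBP2, PCBP3 and PCBP4 (y axis, CPM on TMM library sizes, with a separate scale for each gene) in the 17 libraries (x axis, 6 groups, blue for WT and orange for siTDP43). Points are libraries, horizontal lines are means and bars are 1 SD, with no bar for PCBP3 in WT IgG, where 1 of 2 libraries held 0 counts. Every siTDP43 input library lies below every WT input library, PCBP1 and PCBP2 rise from input to IP and IgG, and PCBP3 is at 0 in siTDP43 IP and IgG.

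This contrast touched most genes: 79.2% of tested genes passed an adjusted p under 0.05, and 40.6% were lower. The count of 4 of 4 members has to be read against that share. The median log2 change was -1.38 over the 4 members and -0.05 over all tested genes. PCBP4 lay among the lowest 8.16% of tested genes, PCBP3 among the lowest 14.4%, PCBP2 among the lowest 15.7% and PCBP1 among the lowest 26.2%.

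Other KH domain genes went in both directions, as did all tested genes (5414 of 14036 rose and 5699 fell). Of 33 listed, 28 were tested, and 11 rose, 14 fell and 3 did not pass, with a median of -0.15. HNRNPK, which also binds poly(C), rose 2.13-fold (log2 1.09 ± 0.04), opposite to the PCBP genes. FUBP1, a KH protein that binds upstream of MYC, rose by 1.37 on the log2 scale, and TDRKH, a piRNA pathway protein, rose most, by 1.85. The largest fall was in MEX3D, a KH and RING finger protein, at -2.87 ± 0.65 from at most 34 counts per library. KHDRBS1 (Sam68), a splicing regulator, changed by -1.39, close to PCBP2. PCBP4 had the second lowest value among all KH domain genes tested.

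**Figure D2:**
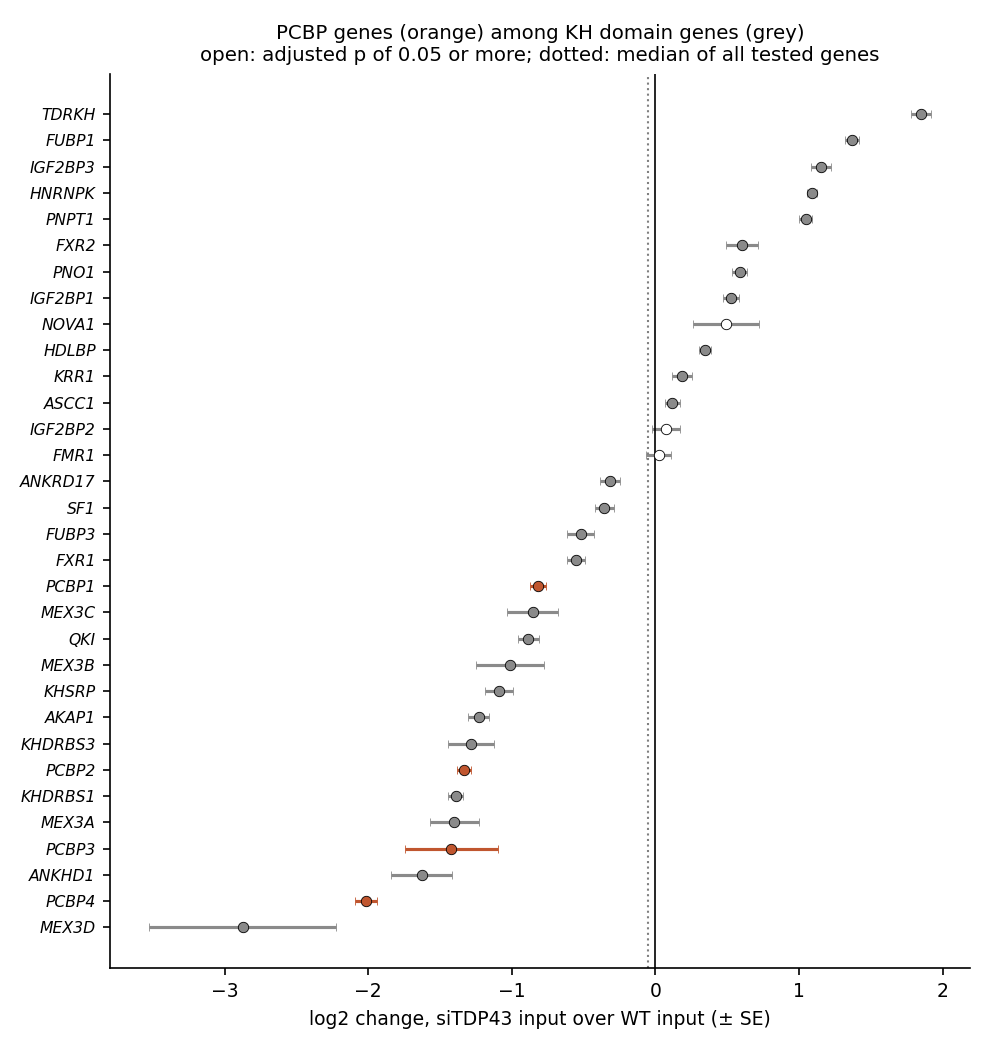
Log2 change in siTDP43 input over WT input (x axis, bars are SE) for the 4 PCBP genes (orange) and 28 other KH domain genes (grey), in the order of their values. Filled points have an adjusted p under 0.05, and the dotted line is the median of all tested genes (-0.05). The PCBP genes lie between -0.82 and -2.01, while HNRNPK lies at 1.09.

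Genes that PCBPs are known to serve or bind moved in no single direction, and neither did all tested genes. Of 14036 genes, 5414 rose and 5699 fell, and the list counts have to be read against that. FTL, FTH1, TFRC and FAM3C, below, were named after their values were seen. Among 12 iron genes, 11 were tested, of which 6 rose and 5 fell. FTL and FTH1, the ferritin chains that PCBP1 and PCBP2 load with iron, were 2.84-fold and 1.41-fold lower. TFRC, the transferrin receptor, rose by 3.22, and SLC40A1, the iron exporter ferroportin, rose by 4.18, from 44 to 82 counts in WT input to 879 to 1046 in siTDP43 input. DOHH, an iron enzyme that PCBPs supply, fell by 2.66. Among 19 mRNAs known as PCBP targets, 15 were tested, and 5 rose, 9 fell and 1 did not pass. At the upper end of that list stood ALOX15, with 0 to 2 counts in WT input and 12 to 22 in siTDP43 input. FAM3C, a target held silent by PCBP1, changed by -1.45.

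NAT10 rose 2.18-fold in siTDP43 input (log2 1.12 ± 0.05). THUMPD1, its partner on tRNA, rose 1.68-fold (log2 0.74 ± 0.07). PCBP1 and PCBP2 therefore stood lower relative to NAT10 in siTDP43 input than in WT input.

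In WT cells the PCBP1 and PCBP2 mRNAs were enriched in the IP, but no less in the IgG control. PCBP1 was 391, 426 and 425 CPM in WT IP, from 79.0 to 83.5 CPM in input, a log2 change of 2.35 ± 0.06 or 5.10-fold (adjusted p = 1.82e-21). In WT IgG it was 482 and 534 CPM, 6.34-fold over input (log2 2.66 ± 0.06, adjusted p = 2.25e-21). Both IgG libraries lay above all 3 IP libraries. IP over IgG was therefore below 1 for PCBP1, with a log2 value of -0.31 ± 0.06 (adjusted p = 3.81e-05).

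PCBP2 followed the same order. It was 396, 404 and 399 CPM in WT IP, 3.17-fold over input (log2 1.67 ± 0.05, adjusted p = 1.04e-19). It was 627 and 636 CPM in WT IgG, 5.08-fold over input (log2 2.34 ± 0.05, adjusted p = 2.45e-21). IP was 1.60-fold lower than IgG (log2 -0.68 ± 0.05, adjusted p = 3.31e-11), and the groups did not overlap. In IgG over input PCBP1 stood above 93.1% and PCBP2 above 90.9% of tested genes.

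PCBP4 was enriched in neither. Its WT libraries were 50.3, 42.8 and 47.2 CPM in IP and 48.8 and 45.7 CPM in IgG, against 52.4 to 53.4 CPM in input. IP over input was -0.17 ± 0.07 on the log2 scale (adjusted p = 0.0394), a value that missed 0.05 under 10 of 16 alternatives. IP over IgG was -0.03 ± 0.09 (adjusted p = 0.747). PCBP3 differed from the other 3: it had 66, 60 and 48 counts in WT IP and 0 and 8 counts in WT IgG. IP over IgG was 5.93-fold (log2 2.57 ± 0.61, adjusted p = 5.79e-04). That value rested on a few IgG counts: without the first IgG library it was 1.54 (adjusted p = 0.0153), and without the second the only IgG library left held 0 counts. IP over input was 0.24 ± 0.33 for PCBP3 (adjusted p = 0.504).

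An mRNA was called ac4C(+) when IP was more than 2-fold over input and over IgG, each with an adjusted p under 0.05. By this rule 0 of 4 members were ac4C(+) in WT, against 15.6% of all tested genes. IP passed over input in 2 of 4 members, PCBP1 and PCBP2, where 30.2% of genes passed. IP passed over IgG in 1 of 4, PCBP3, where 35.2% did. IgG passed over input in 2 of 4, again PCBP1 and PCBP2, where 24.4% did, and under input in 1, PCBP3, where 36.6% did.

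In siTDP43 cells PCBP1 and PCBP2 were again higher in both pull-downs than in input. PCBP1 was 219, 199 and 214 CPM in siTDP43 IP and 139.5, 136 and 135 CPM in siTDP43 IgG, from 45.4 to 46.7 CPM in input. All IP libraries now lay above all IgG libraries. IP over input was 5.09-fold (log2 2.35 ± 0.08, adjusted p = 2.62e-17) and IgG over input 3.48-fold (log2 1.80 ± 0.08, adjusted p = 9.09e-15). IP over IgG was 0.55 ± 0.08 on the log2 scale (adjusted p = 3.37e-06), 1.46-fold and under the 2-fold limit.

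PCBP2 kept the order seen in WT. It was 246, 246 and 255 CPM in siTDP43 IP and 316, 303 and 312 CPM in siTDP43 IgG, from 48.6 to 50.9 CPM in input. IP over input was 5.54-fold (log2 2.47 ± 0.07, adjusted p = 2.02e-18) and IgG over input 7.26-fold (log2 2.86 ± 0.07, adjusted p = 1.89e-19). IP over IgG stayed below 1, at -0.39 ± 0.07 on the log2 scale (adjusted p = 3.65e-05).

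PCBP4 fell in both siTDP43 pull-downs. It had 56, 44 and 31 counts in IP (4.16, 4.46 and 3.86 CPM) and 12, 14 and 6 counts in IgG (4.41, 5.67 and 2.13 CPM), against 12.2 to 14.4 CPM in input. IP was 2.80-fold under input (log2 -1.49 ± 0.25, adjusted p = 1.40e-05) and IgG 2.76-fold under input (log2 -1.47 ± 0.32, adjusted p = 2.86e-04). Both pull-downs overlapped, and IP over IgG was -0.02 ± 0.37 (adjusted p = 0.977). PCBP3 had 0 counts in all 6 siTDP43 pull-down libraries and was not tested there. Mates of a read pair were counted one by one, so a count of 0 allows up to 3 pairs, about 6 counts, per library. That is 0.6003 CPM on average in IP, and PCBP3 was at least 1.27-fold lower in siTDP43 IP than in input. In siTDP43 IgG the same limit, 2.26 CPM, lay above the input level of 0.76 CPM, so a difference was not detectable at this depth. Limits of this kind cover counting error only.

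Of the 4 members, 0 were ac4C(+) in siTDP43, against 10.3% of tested genes. IP passed over input in PCBP1 and PCBP2 (26.8% of genes) and under input in PCBP4 (25.4%), and over IgG in none of the 3 tested (34.0%). IgG passed over input in PCBP1 and PCBP2 (24.7%) and under input in PCBP4 (41.0%).

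**Figure D3:**
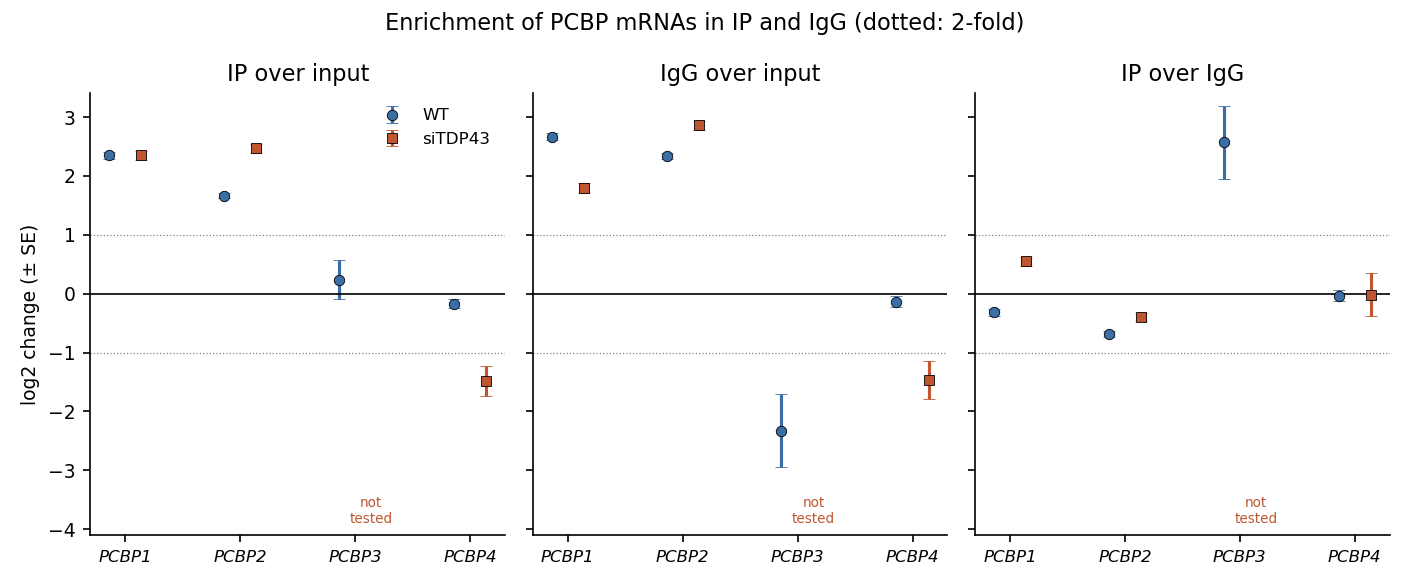
Log2 change (y axis, bars are SE) of IP over input, IgG over input and IP over IgG for each PCBP gene (x axis), with WT as blue circles and siTDP43 as orange squares. Dotted lines mark 2-fold, and PCBP3 was not tested in siTDP43. PCBP1 and PCBP2 lie far above 1 in both pull-downs over input and between -1 and 1 in IP over IgG.

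Whether enrichment differed between WT and siTDP43 was asked with an interaction term fitted to all 17 libraries. Over all 15165 tested genes the median log2 change was -0.19 in IP over input, 0.24 in IP over IgG and -0.48 in IgG over input. Member values have to be read against these medians, to which PCBP1 in IP over input and PCBP2 in IP over IgG lay close. For PCBP1 the log2 change of IP over input was -0.15 ± 0.09 (adjusted p = 0.143), and it passed at -0.21 with DESeq2's test (adjusted p = 0.00918) and at -0.45 with total count scaling (adjusted p = 1.86e-05). Its IgG over input was 2.10-fold lower in siTDP43 (-1.07 ± 0.10, adjusted p = 9.52e-12). Its IP over IgG was 1.89-fold higher (0.92 ± 0.10, adjusted p = 3.27e-10), so PCBP1 moved from below to above 1. All 3 contrasts share libraries and are not independent of each other.

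PCBP2 changed in all 3. IP over input was 1.57-fold higher in siTDP43 (0.65 ± 0.08, adjusted p = 9.89e-09). IgG over input was 1.24-fold higher (0.31 ± 0.09, adjusted p = 2.39e-03), a difference that was gone with total count scaling (-0.0078). IP over IgG was 1.27-fold higher (0.34 ± 0.09, adjusted p = 9.52e-04), but 0.12 with DESeq2's size factors (adjusted p = 0.262). The change of IP over input passed under every alternative but also moved with the scaling, to 0.36 with total count scaling (adjusted p = 1.85e-04).

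PCBP4 lost in both pull-downs relative to input. The change was 2.76-fold lower for IP (-1.46 ± 0.20, adjusted p = 4.97e-08) and 2.91-fold lower for IgG (-1.54 ± 0.29, adjusted p = 1.25e-05). For IP over IgG it was 0.07 ± 0.33 (adjusted p = 0.9999). PCBP3 was at least 1.49-fold lower in IP over input in siTDP43 than in WT, computed against 6 counts (3 pairs) per library. The change passed for IP over input in 1 member upward (31.5% of genes) and in 2 downward (36.3%). For IgG over input 1 rose (27.0%) and 2 fell (37.4%), and for IP over IgG 2 rose (34.9%).

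The ratio of PCBP2 to PCBP1 counts within a library does not depend on library scaling. It can still depend on where reads lie along PCBP2, whose 3' end is the 671 bases shared with MAP3K12. Reads there may have been counted for neither gene, and the part of such losses in the ratio was not tested. It was 1.56, 1.49 and 1.61 in WT input and 1.12, 1.05 and 1.09 in siTDP43 input. In WT IP it was 1.01, 0.949 and 0.938, and in WT IgG 1.30 and 1.19. Each WT pull-down thus held less PCBP2 relative to PCBP1 than the WT input.

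In siTDP43 IgG the order was the opposite, with ratios of 2.26, 2.23 and 2.31, all well above the input libraries. In siTDP43 IP the ratio was 1.12, 1.23 and 1.19, and its lowest library (1.1216) was nearly level with the highest input library (1.1196). Group means were 1.55 ± 0.06 in WT input, 0.966 ± 0.04 in WT IP, 1.09 ± 0.04 in siTDP43 input and 2.27 ± 0.04 in siTDP43 IgG (SD, n = 3 each). The ranges did not overlap in any of 9 comparisons of groups, though for siTDP43 IP and input only by that narrow gap. With groups this small the exact two-sided permutation test cannot go below p = 0.1, and it gave 0.1 for 3 against 3 libraries and 0.2 where WT IgG was used (0.15 and 0.2 after Benjamini-Hochberg adjustment over the 9).

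**Figure D4:**
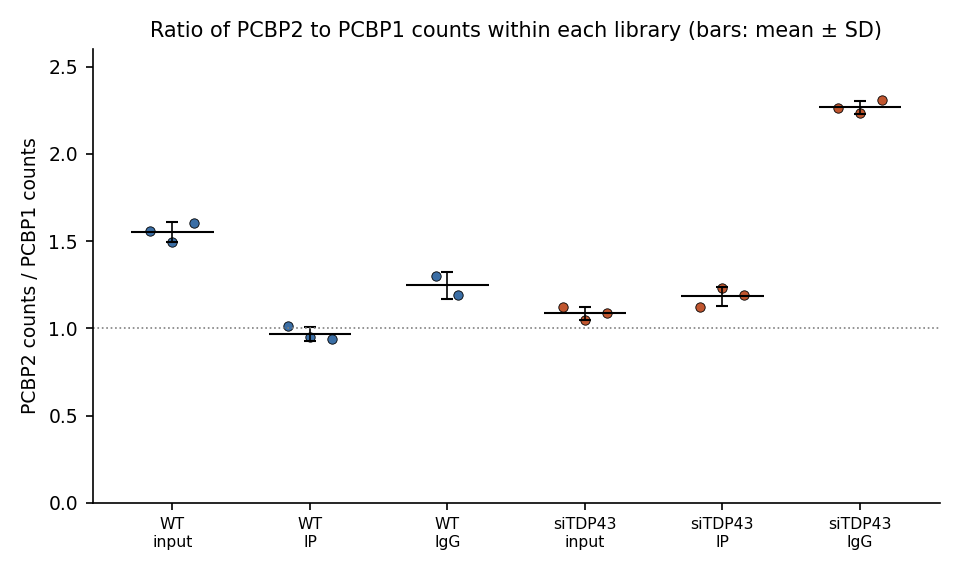
Ratio of PCBP2 counts to PCBP1 counts (y axis) in each of the 17 libraries by group (x axis, blue for WT and orange for siTDP43), with means as lines and 1 SD as bars. The dotted line marks equal counts. WT IP lies around 1, WT input around 1.55 and siTDP43 IgG, the highest group, around 2.27.

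As shares of the summed CPM per kilobase of the family, PCBP1 took 42.0%, PCBP2 36.0% and PCBP4 21.1% in WT input. In siTDP43 input PCBP1 took 54.6%, PCBP2 32.7% and PCBP4 11.9%. These shares use the full exon length of PCBP2, including the 671 bases shared with MAP3K12, and would shift with another length. The family sum, not divided by length, was 263 ± 6.53 CPM in WT input and 110.0 ± 1.76 CPM in siTDP43 input (n = 3 each). PCBP4 took 0.920% of the sum per kilobase in siTDP43 IP and 1.01% in siTDP43 IgG.

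PCBP2 shares 671 of its exon bases (21.2%) with MAP3K12, a kinase gene on the opposite strand, and SMART-seq2 reads do not keep the strand, so reads there cannot be told apart. MAP3K12 itself had at most 139 counts in any library. If MAP3K12 were covered evenly, its density outside the shared stretch would have placed up to 1.29% of a library's PCBP2 count there. The stretch is the 3' end of both genes, where coverage may differ, so this estimate is not an upper limit. That share covers only MAP3K12 reads added to PCBP2. MAP3K12 had 0 counts in siTDP43 IP, where PCBP2 had 2050 to 3311. Reads in the shared bases may thus have been counted for neither gene, and the resulting loss for PCBP2 was not tested. MAP3K12 rose by 0.93 on the log2 scale in siTDP43 input, opposite to PCBP2. PCBP4 shares 51 bases with GPR62, which had 0 counts in all libraries.

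Reads of near-identical copies can be lost or misplaced. Copies of at least 100 bases elsewhere in the genome matched PCBP1 at up to 90.2% identity with a longest identical run of 50 bases. PCBP2 had a copy on chromosome 8 with 97.4% identity and an identical run of 154 bases, so a few PCBP2 reads could align to both places and be dropped as not unique. PCBP3 and PCBP4 had no such copy.

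PCBP1-AS1, a noncoding RNA that runs away from PCBP1 on the opposite strand (chr2:70189395-70314147), shares no exon base with it. Like PCBP1 it was lower in siTDP43 input (5.54 ± 0.36 CPM against 9.10 ± 0.19 in WT, log2 -0.71 ± 0.14, adjusted p = 2.33e-05). Unlike PCBP1 it was lower in WT IP than in WT input (log2 -1.35 ± 0.19), with 0 and 2 counts in WT IgG and 0 in every siTDP43 pull-down library.

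Likeness of pattern was measured as Pearson's r of log2 CPM over the 17 libraries, among 10140 other genes with a mean of at least 100 counts. PCBP1 was most like EHMT2 (0.989), DYNLL2 (0.989) and E2F1 (0.986), and PCBP2 like MLEC (0.993), UBE2M (0.991) and GNB1 (0.991). PCBP4 was most like LOC100289187 (0.981), INHBE (0.979) and MRPL2 (0.976). For PCBP3, from few counts, the genes were SPATA2 (0.972), RAMP2 (0.949) and LOC730101 (0.949). Such values were common, with 331 genes over 0.9 for PCBP1 and 413 for PCBP2, 70 for PCBP4 and 20 for PCBP3. Between members r was 0.94 for PCBP1 with PCBP2 and 0.82 for PCBP3 with PCBP4, and -0.26 to 0.22 for the other pairs. The points are libraries of 6 groups that differ in depth and pull-down, so these values are descriptions without a test.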

How the data were processed

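The authors trimmed reads (Trim Galore 0.6.7), aligned them to hg19 (STAR 2.7.10a) and counted uniquely aligned reads per gene (featureCounts 2.0.2). The deposited values are raw counts, with no normalization. The strand setting is not given in the sources used here. Between 81.3 and 95.9% of counts from 1 to 20 were even, so a count is about 1 read of a pair.

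Groups came from sample titles. Counts were fitted in R 4.3.3 with edgeR 4.0.16 (TMM, filterByExpr minimum count 10, quasi-likelihood F test, two-sided, Benjamini-Hochberg). A call needed an adjusted p under 0.05, and for pull-downs also a fold above 2. Alternatives included DESeq2 1.42.0, and the fits were tested on simulated data. Exons and siRNAs were searched by exact match in hg19, and near copies by BLAST. Named genes were the members, overlapping genes, NAT10, THUMPD1, TARDBP, HNRNPK, the 3 genes most like each member and the extremes of each list. KHDRBS1, FUBP1, TFRC, FTL, FTH1 and FAM3C were named after their values were seen. The members and lists were chosen with earlier results of these data known. Spike-ins were not used here, so values are relative within a library. The values of 1 listed gene are not reported here.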

Additional observations from a re-analysis of the deposited data

Results flagged for a closer look

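Effects of pull-down that differed between WT and siTDP43, by the interaction test over 17 libraries, were as follows. Medians over all tested genes were -0.19 in IP over input, 0.24 in IP over IgG and -0.48 in IgG over input. For PCBP1 the change was 0.92 in IP over IgG and -1.07 in IgG over input. For PCBP2 it was 0.65 in IP over input, 0.34 in IP over IgG and 0.31 in IgG over input, and all 3 moved with the scaling (0.36 in IP over input with total count scaling). For PCBP4 it was -1.46 in IP over input and -1.54 in IgG over input. For PCBP3 it was at most -0.57 in IP over input, a bound on the log2 scale against 6 counts (3 read pairs) per library. PCBP1 was the member whose IP over IgG turned from below 1 in WT to above 1 in siTDP43. siTDP43 IgG libraries, at 3013989 to 3436811 counts, were the shallowest, and the part of depth in these differences was not tested.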

How the results depend on the processing

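Over 636 recomputed member values, 609 kept their direction and their side of an adjusted p of 0.05, 12 lost it, 3 gained it and 12 turned sign. This count leaves out PCBP3 in the change of IP over IgG and in the change of IgG over input. All 4 falls in input stayed below 0.05 under every alternative, with log2 changes of -0.91 to -0.80 for PCBP1, -1.42 to -1.30 for PCBP2, -1.69 to -1.30 for PCBP3 and -2.10 to -1.96 for PCBP4. PCBP3 had too few counts for the filter on a mean of 50. PCBP4 in WT IP over input missed 0.05 with DESeq2's size factors and Wald test (-0.16 in both), total count scaling (-0.063), a mean of at least 50 counts (-0.10) and all 17 libraries in 1 fit (-0.18), and leaving out a library gave -0.22 to -0.10. Its IP over IgG, near 0, turned sign with total count scaling (0.10 in WT, 0.19 in siTDP43) and with all 17 libraries (0.060 in siTDP43), and the change with DESeq2's size factors and Wald test (-0.15 in both). Leaving out a library gave -0.093 to 0.028 in WT, -0.34 to 0.28 in siTDP43 and -0.25 to 0.37 for the change. The change of IP over input of PCBP1 passed at -0.21 with DESeq2's size factors and Wald test and at -0.45 with total count scaling. For PCBP2 the change of IP over input fell to 0.36 with total count scaling, the change of IP over IgG was lost with DESeq2's size factors (0.12) and Wald test (0.11), and that of IgG over input turned to -0.0078 with total count scaling. Total count scaling moved the median of all genes from -0.48 to -0.75 in the last contrast, from -0.19 to -0.48 in the change of IP over input and from -0.58 to -1.13 in siTDP43 IgG over input, and DESeq2's size factors moved that of the change of IP over IgG from 0.24 to 0.03. Apart from these shifts, the cause was not tested. Without IP over input as a criterion, 1 member, PCBP3, passed in WT. With total count scaling the WT input levels were 50.4 (PCBP1), 43.2 (PCBP2) and 25.4 (PCBP4) CPM per kilobase. Counts of genes called moved by less than 1.5 times in every contrast. By the rule used here, which is not the study's, ac4C(+) genes numbered 2302 in WT and 1314 in siTDP43. The numbers were 1501 and 741 where genes needed a mean of 50 counts, 1542 and 891 with 5-fold over IgG, and 5186 and 4328 against IgG alone.

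Same-numbered libraries shared little deviation (correlations of -0.03 to 0.06), a check that cannot exclude that they came from the same culture. With the replicate block, PCBP1, PCBP2, PCBP3 and PCBP4 changed by -0.82, -1.33, -1.45 and -2.02 in input, 11019 genes were called there instead of 11113, and no member's call changed. In siTDP43 IgG the depth did not allow PCBP3 to be compared with input.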
